A study of Mus musculus with 6 samples.

Results

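AP-1 is a family of transcription factors that bind DNA as dimers of leucine zipper proteins. The 10 members examined here were the Fos proteins Fos, Fosb, Fosl1 and Fosl2, the Jun proteins Jun, Junb and Jund, and the related proteins Atf3, Jdp2 and Batf. They were chosen by name, as every array probe that is not a control and whose RefSeq transcript belongs to one of these genes, which gave 10 genes with 14 probes among 45616 features, 22908 of which carry a gene symbol. Both populations came from islets of Wnt4eGFPCre; mTmG mice at postnatal day 1. In these mice Cre is made from the Wnt4 locus and switches a membrane reporter to GFP, so that membrane GFP marks cells with a history of Wnt4 expression rather than its level at the time of the sort. Dissociated islet cells were sorted into GFP-positive cells, called Wnt4hi, and GFP-negative cells, called Wnt4low, and their amplified RNA was hybridised to single-color arrays. There were 3 arrays for each population: Wnt4hi replicates 2, 3 and 4 and Wnt4low replicates 1, 3 and 4. Each sample was a pool, of 4 pups for replicates 1, 2 and 3 and of 3 pups for replicate 4.

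Jun proteins dimerise with each other or with Fos proteins, whereas Fos proteins need a Jun partner to bind DNA. Dimers of Jun and Fos bind the TPA response element (TRE), and Jun with ATF proteins binds the related cyclic AMP response element (CRE). Many of the genes are immediate early genes, which are transcribed within minutes of growth factor, calcium or stress signals without new protein synthesis, and dissociation of tissue is among their known triggers. In pancreatic β-cells, glucose and membrane depolarisation are known to induce Fos and Junb.

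Of the 10 members, Jun and Jdp2 were lower in Wnt4hi than in Wnt4low cells, by 1.83-fold and 1.70-fold, and neither gene had a Wnt4hi array above a Wnt4low array. Fosl2 was 1.66-fold lower in the mean but overlapped by its brighter probe, while its second probe was lower without overlap (-0.68, unadjusted p = 0.0248 in limma). By the brightest probe of each gene, Fos, Fosb, Junb, Jund and Batf differed by less than 0.2 on the log2 scale in either direction, although the second probes of Fosb and Junb gave -0.71 and -1.06 and did not pass the test. None of the 10 passed after Benjamini-Hochberg adjustment over all features in limma, so each difference was tested only at the unadjusted threshold of 0.05 that the study used.

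The promoters of Jun and Fos are shown because Jun differed with no overlap, whereas Fos had nearly equal means and overlapping arrays. Each sequence is the 250 bases before the annotated start in RefSeq (GRCm38.p6), 5′ to 3′ on the strand of the gene. Capitals mark matches to the motifs searched. The Jun window is chr4:95052223-95052472 on the minus strand and the Fos window is chr12:85473640-85473889 on the plus strand.
Jun: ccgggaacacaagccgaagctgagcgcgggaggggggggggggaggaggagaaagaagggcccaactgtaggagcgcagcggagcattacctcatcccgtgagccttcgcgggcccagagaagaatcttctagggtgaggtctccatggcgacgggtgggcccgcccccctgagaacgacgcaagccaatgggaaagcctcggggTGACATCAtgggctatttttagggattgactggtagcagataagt
Fos: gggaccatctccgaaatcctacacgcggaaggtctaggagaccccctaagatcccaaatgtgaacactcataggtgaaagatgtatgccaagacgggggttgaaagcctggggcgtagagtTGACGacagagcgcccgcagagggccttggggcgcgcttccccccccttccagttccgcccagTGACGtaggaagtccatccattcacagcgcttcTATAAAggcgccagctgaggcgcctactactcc

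In the Jun window the capitals mark TGACATCA, the variant of the TRE known from the Jun promoter, which begins 45 bases before the start. These letters were found on either strand in 2.93% of 32851 promoter windows of the same length and in no other member. In the Fos window the capitals mark TGACG, the first 5 bases of the CRE, at 129 and 66 bases before the start, and the TATA box TATAAA at 33 bases. TGACG was found in 17.8% of all windows and in those of 6 members, Fos, Fosb, Junb, Atf3, Jdp2 and Batf, whereas TATAAA was found in 12.4% of all windows and, among members, in Fos. The full TRE, TGACTCA, was in 4.46% of windows, the full CRE, TGACGTCA, which contains TGACG, in 1.55%, and the CArG box (CC, 6 bases of A or T, GG), which serum response factor binds, in 1.47%. None of these 3 motifs was found in a member's window, and sequence beyond the 250 bases was not searched. TGACATCA and TGACG were added to the search after the sequences had been seen, and a match describes letters, not binding. Windows were held for 9 of the 10 members, all but Fosl1.

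Across the 6 arrays, 70.5% to 79.5% of 59305 spots were well above background, the median signal was 10.8 to 15.7 times the local background, and 0 spots were saturated. Wnt4 itself was 11.20, 10.53 and 10.77 on the log2 scale in Wnt4hi and 9.85, 10.10 and 9.31 in Wnt4low, which gave a difference of 1.08 ± 0.27 (SE, n = 3 arrays per population, unadjusted p = 0.00694, adjusted p = 0.210 in limma). The populations also differed in cell type markers. All 12 endothelial markers were lower in Wnt4hi, with a median of -3.79 on the log2 scale and 9 past the adjusted threshold, and Tek and Tie1 were well above background on 0 of the Wnt4hi arrays. At the unadjusted threshold, 8 of 11 mesenchymal and pericyte markers and 5 of 12 leukocyte markers were lower, and 6 of 10 β-cell markers were higher. In such bulk samples, fewer cells of a type and less RNA per cell cannot be told apart. The array labelled Wnt4hi replicate 2 did not follow the authors' normalized column of that name: over 36685 genes, its deviations from the mean of the arrays had r = 0.283 with that column, against 0.878 to 0.902 for the other 5 arrays. Without this array, Jun differed by -0.76 (unadjusted p = 0.00877 in limma) and Jdp2 by -0.85 (unadjusted p = 0.0124 in limma). Fosl2, by its brighter probe, then differed by -0.49 and did not pass (unadjusted p = 0.162 in limma).

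**Figure D1:**
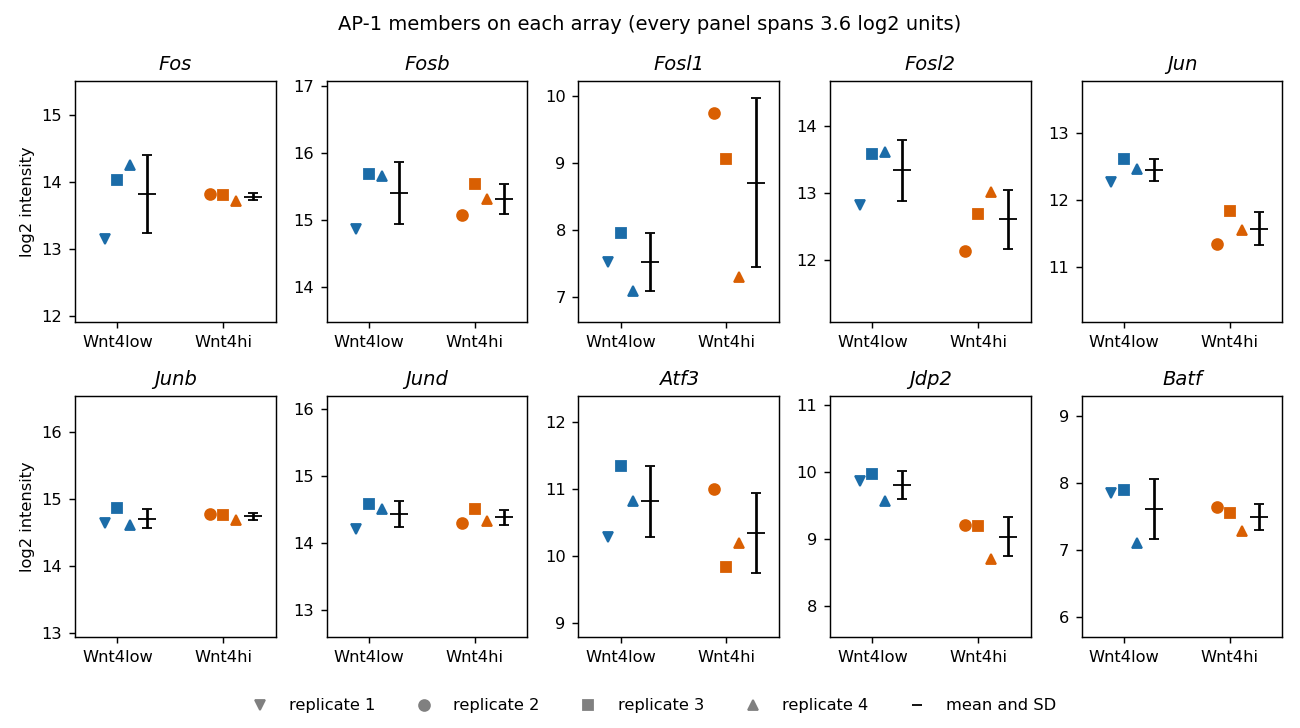
Log2 intensity of the probe that stands for each AP-1 member (vertical axis, each panel spanning 3.6 units) on the 3 Wnt4low arrays (blue) and the 3 Wnt4hi arrays (orange), with marker shapes for replicate numbers and black bars for the mean ± SD. The populations separate for Jun and Jdp2 and overlap for the other 8 members, and Fosl1 spreads over 7.30 to 9.75 in Wnt4hi.

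Jun is the founding Jun protein and the main transcriptional activator among them. Its log2 intensity was 11.34, 11.82 and 11.54 in Wnt4hi replicates 2, 3 and 4 and 12.27, 12.60 and 12.46 in Wnt4low replicates 1, 3 and 4. Every Wnt4hi array lay below every Wnt4low array. The means were 11.57 ± 0.24 and 12.44 ± 0.17 (SD, n = 3), and the difference was -0.87 ± 0.18 (SE), with a 95% interval of -1.31 to -0.44. In limma the unadjusted p was 0.00251 and the adjusted p was 0.134. As a fold, Jun was 1.83 times higher in Wnt4low, with an interval of 1.36 to 2.48.

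Junb, often an antagonist of Jun in cell growth, was measured by a pair of probes that gave different sizes. The brighter probe gave 14.78, 14.76 and 14.68 in Wnt4hi and 14.64, 14.87 and 14.61 in Wnt4low. The arrays of the populations interleaved, and the difference of 0.04 ± 0.13 (SE) had an interval of -0.29 to 0.36 (unadjusted p = 0.803 in limma). Jund, the Jun protein that most cells make without stimulation, was 14.31, 14.52 and 14.34 in Wnt4hi and 14.21, 14.58 and 14.51 in Wnt4low. It overlapped too, with a difference of -0.05 and an interval of -0.43 to 0.33 (unadjusted p = 0.760 in limma). Neither of these intervals reaches the difference measured for Jun, but that of the dimmer Junb probe, from -2.36 to 0.23 around -1.06, does, and the mean of both Junb probes differed by -0.51. Set against Junb on the same array, the Jun value was, by the brighter Junb probe, 0.91 lower in Wnt4hi than in Wnt4low on the log2 scale, and against Jund it was lower by 0.82. These gene pairs were chosen after their values had been seen, and each gave a two-sided exact permutation p of 0.1, the smallest that 3 arrays against 3 allow.

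Among the Fos proteins, Fos is the classic marker of recent stimulation. It was 13.81, 13.80 and 13.72 in Wnt4hi and 13.16, 14.03 and 14.26 in Wnt4low. The Wnt4hi arrays lay close together, inside the range of the Wnt4low arrays, of which replicate 1 was the lowest. The difference was -0.03 ± 0.29 (SE), with an interval of -0.75 to 0.68 (unadjusted p = 0.911 in limma). This interval overlaps that of Jun, -1.31 to -0.44, and the difference between Fos and Jun was not tested. Fosb, a close relative that shares its rapid induction, was 15.08, 15.54 and 15.32 in Wnt4hi and 14.87, 15.69 and 15.66 in Wnt4low by its brighter probe. Here too Wnt4low replicate 1 was the lowest of all arrays and the populations overlapped, with a difference of -0.09 and an interval of -0.74 to 0.56 (unadjusted p = 0.741 in limma).

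Fosl2, also called Fra-2, and Fosl1, or Fra-1, lack the strong activation domain of Fos and are known to accumulate later after a stimulus. Fosl2 was 12.12, 12.68 and 13.00 in Wnt4hi and 12.81, 13.58 and 13.60 in Wnt4low by its brighter probe. Only Wnt4hi replicate 4 and Wnt4low replicate 1 overlapped. The difference was -0.73 ± 0.32 (SE), with an interval of -1.50 to 0.04, an unadjusted p of 0.0590 and an adjusted p of 0.501 in limma.

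The second Fosl2 probe gave 11.47, 11.96 and 12.14 in Wnt4hi and 12.46, 12.80 and 12.33 in Wnt4low. On this probe every Wnt4hi array was below every Wnt4low array. Its difference of -0.68 ± 0.23 (SE) was close to that of the brighter probe, and it passed the unadjusted threshold (unadjusted p = 0.0248, adjusted p = 0.344 over all probes in limma). Set against Fos on the same array, the brighter Fosl2 probe was 0.70 lower in Wnt4hi than in Wnt4low, and against the brighter Fosb probe it was 0.64 lower. The second Fosb probe itself differed by -0.71, close to the -0.73 of the brighter Fosl2 probe. The pairs with Fosl2 too were chosen after their values had been seen, and each gave the same smallest exact permutation p of 0.1. It stayed at 0.1 after Benjamini-Hochberg adjustment over the 4 pairs compared, which does not account for that choice.

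Fosl1 was the member with the widest spread. It was 9.75, 9.06 and 7.30 in Wnt4hi and 7.53, 7.96 and 7.10 in Wnt4low, and it was well above background on 2 of 3 arrays of each population, not on Wnt4hi replicate 4 or Wnt4low replicate 4. In Wnt4hi, 2 arrays were above all Wnt4low arrays and the third was below 2 of them. The difference of 1.18 ± 0.63 (SE) had an interval of -0.35 to 2.71 (unadjusted p = 0.110, adjusted p = 0.615 in limma). Without Wnt4hi replicate 4 it was 1.88 and passed the threshold (unadjusted p = 0.00257 in limma). Without Wnt4hi replicate 2 it was 0.66 (unadjusted p = 0.292 in limma), and in the authors' normalized log2 values the same fit gave 0.37 (unadjusted p = 0.503 in limma).

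Jdp2 and Atf3 can bind the same elements and are mostly known as repressors, and Atf3 is a stress-induced gene of islets. Jdp2 was 9.22, 9.20 and 8.70 in Wnt4hi and 9.87, 9.97 and 9.57 in Wnt4low. The populations did not overlap, with means of 9.04 ± 0.29 and 9.80 ± 0.21 (SD, n = 3). The difference of -0.77 ± 0.20 (SE), with an interval of -1.26 to -0.27, passed the unadjusted threshold and not the adjusted one (unadjusted p = 0.00877, adjusted p = 0.232 in limma), and the fold in favour of Wnt4low was 1.70 with an interval of 1.21 to 2.39.

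Atf3 was 11.00, 9.83 and 10.19 in Wnt4hi and 10.28, 11.35 and 10.83 in Wnt4low. The arrays interleaved, since Wnt4hi replicate 2 was the second highest of all 6. Its difference was -0.48 ± 0.39 (SE, unadjusted p = 0.265 in limma). With 1 array left out it ranged from -0.80 (without Wnt4hi replicate 2) to -0.21 (without Wnt4low replicate 3), and it was -0.22 without Wnt4hi replicate 3 and -0.75 without Wnt4low replicate 1. Batf, which is best known from lymphocytes, was 7.64, 7.54 and 7.28 in Wnt4hi and 7.84, 7.90 and 7.10 in Wnt4low. It was not well above background on replicate 4 of either population, and its difference of -0.12 had an interval of -0.74 to 0.49 (unadjusted p = 0.642 in limma).

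Over the family, 2 of 10 members were lower in Wnt4hi at the unadjusted threshold, where 5.53% of all 45616 features were, and 0 were higher, where 5.06% of all features were. The adjusted threshold was passed by 0 members and by 0.441% of all features. The 2 members with no overlap were lower in Wnt4hi, an arrangement found for 6.44% of all features. A fold change below 0 was found for 8 members and one above it for 2, and the median over the members was -0.11, beside 0.07 over all features. The signal was well above background on all 6 arrays for 8 of the 10 members.

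A second probe was present for 4 members, and within Fosb and Junb the probes of one gene gave different sizes. The dimmer Fosb probe was 9.30, 10.10 and 10.45 in Wnt4hi and 10.51, 11.10 and 10.37 in Wnt4low, a difference of -0.71 ± 0.35 (SE, unadjusted p = 0.0863 in limma), against -0.09 for the brighter probe. The dimmer Junb probe was 9.64, 10.67 and 8.76 in Wnt4hi and 11.27, 10.84 and 10.15 in Wnt4low, a difference of -1.06 ± 0.53 (SE, unadjusted p = 0.0914 in limma), against 0.04. Each of these dimmer probes had overlapping populations. The second Jund probe, listed under another transcript, differed by 0.25 ± 0.20 (SE, unadjusted p = 0.255 in limma). Of all 14 probes, 3 were lower in Wnt4hi at the unadjusted threshold, those of Jun and Jdp2 and the second of Fosl2, where 6.12% of 56605 probes were.

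**Figure D2:**
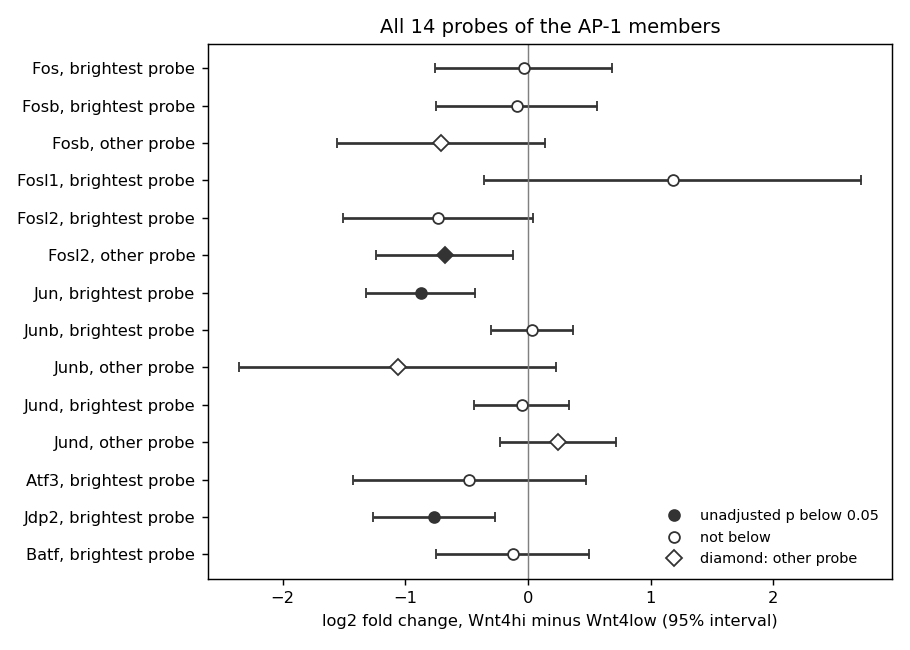
Fitted log2 fold change, Wnt4hi minus Wnt4low (horizontal axis), of all 14 probes of the AP-1 members, with 95% intervals as bars, circles for the brightest probe of a gene, diamonds for the other probe and filled symbols for an unadjusted p below 0.05. The 3 filled symbols, Jun, Jdp2 and the second Fosl2 probe, lie between -0.87 and -0.68, while the dimmer Junb probe at -1.06 has the widest interval among the diamonds.

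By their brightest probes, the members differed in how much they varied between arrays of one population. Junb had a pooled SD of 0.108, Jund 0.161 and Jun 0.209, and among the 1000 features nearest in level to each, 7.4%, 15.7% and 21.1% had a lower SD. Fos had 0.413, Fosb 0.366, Fosl2 0.449 and Fosl1 0.943, and 87.3%, 83.4%, 88.6% and 95.8% of their nearest features had a lower SD. Jdp2 (0.255, with 31.7% lower) stood near the Jun proteins, Atf3 (0.565, with 83.3% lower) near the Fos proteins, and Batf (0.344, with 62.2% lower) between them. For Fos the spread came from Wnt4low, with an SD of 0.582 against 0.049 in Wnt4hi, and the dimmer Junb probe varied far more than the brighter one, with SDs of 0.959 in Wnt4hi and 0.564 in Wnt4low. Within Wnt4low, replicate 1 was the lowest array for 6 of 10 members and the highest for 0, and replicate 3 was the highest for 8. Within Wnt4hi, replicate 2 was the highest for 6 members and the lowest for the other 4.

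By the smallest root-mean-square difference of mean-subtracted log2 values over the 6 arrays, among 16154 other named genes well above background on all arrays, the genes most like Jun were Rock2 (0.0897), Serpinb6b (0.0953) and Sult1a1 (0.110), where the median gene stood at 0.587. The genes most like Fos were Gna13 (0.0711), Pkd2 (0.0806) and Rpa3 (0.0877), against a median of 0.480.

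Of 7 measured partners and relatives with which AP-1 proteins can also pair, 1 was higher in Wnt4hi, the small Maf protein Mafg, by 0.66 ± 0.16 (SE, unadjusted p = 0.00541, adjusted p = 0.189 in limma), and 0 were lower. The list had a median of 0.04. Maff (0.47, unadjusted p = 0.150) and Atf2 (-0.40, unadjusted p = 0.390) followed in limma and did not pass. Of 7 coactivators and turnover factors, Itch, a ubiquitin ligase that acts on Jun proteins, differed by -0.64 (unadjusted p = 0.0257, adjusted p = 0.365 in limma), and the median was 0.01. Cops5 (0.32, unadjusted p = 0.136) and Cop1 (-0.20, unadjusted p = 0.485) did not pass in limma.

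Of 18 kinases and transcription factors upstream of AP-1 genes, 1 was higher and 1 lower at the unadjusted threshold, with a list median of -0.18. Elk3, an Ets factor that serum response factor recruits and that is known from endothelium, was 10.20, 10.17 and 10.41 in Wnt4hi and 12.04, 11.75 and 11.80 in Wnt4low. These groups were far apart, and the difference of -1.60 ± 0.15 (SE) passed the adjusted threshold (adjusted p = 0.0275 in limma). Srf, which encodes serum response factor, was higher by 0.67 ± 0.24 (SE, unadjusted p = 0.0330, adjusted p = 0.404 in limma). Elk4 differed by -0.52 and did not pass (unadjusted p = 0.0547 in limma).

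Of 33 other immediate early genes, 17 were lower in Wnt4hi at the unadjusted threshold, 0 were higher and 16 passed in neither direction, while 17 were lower without overlap and the list median was -0.54. Rhob, a small GTPase, was 11.57, 11.21 and 11.23 in Wnt4hi and 13.04, 12.72 and 12.73 in Wnt4low, with a difference of -1.50 ± 0.17 (SE, adjusted p = 0.0417 in limma). Ccn2, a matricellular protein gene also called Ctgf, differed by -2.24 ± 0.28 (SE, adjusted p = 0.0491 in limma). No array of either gene crossed into the other population. Ier3 differed by -2.34 (unadjusted p = 0.000526, adjusted p = 0.0702 in limma), and the list ran from -2.35 for Sgk1 to 1.32 for Npas4, which did not pass (unadjusted p = 0.170 in limma). Npas4 was 13.47 on Wnt4hi replicate 2 and 9.84 to 10.84 on the other 5 arrays. Egr1, the zinc finger factor most often measured beside Fos, differed by -0.40 ± 0.38 (SE, unadjusted p = 0.331 in limma). The difference between this list and the AP-1 members was not tested.

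**Figure D3:**
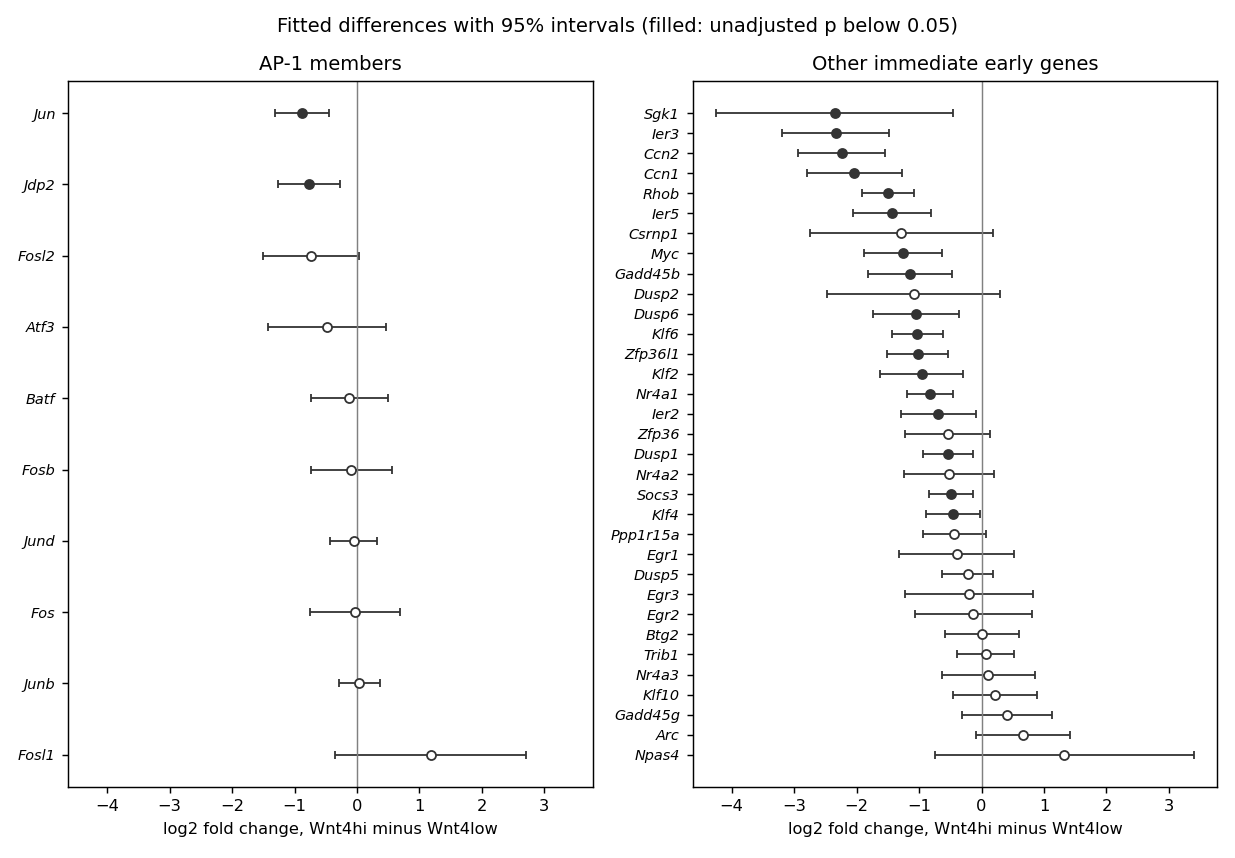
Fitted log2 fold changes, Wnt4hi minus Wnt4low (horizontal axes), with 95% intervals as bars, for the 10 AP-1 members (left) and 33 other immediate early genes (right), each ordered by size, with filled circles for an unadjusted p below 0.05. Among AP-1 members 2 of 10 and among other genes 17 of 33 are filled, and all filled circles lie below 0.

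Of 13 known AP-1 target genes, 3 were lower in Wnt4hi at the unadjusted threshold and 0 higher, with a median of -0.34. They were Ccnd1, which encodes cyclin D1 and drives entry into the cell cycle (-1.98 ± 0.31, SE, unadjusted p = 0.000593), the urokinase gene Plau (-1.05 ± 0.19, unadjusted p = 0.00133) and the osteopontin gene Spp1 (-2.16 ± 0.51, unadjusted p = 0.00509), none of them past the adjusted threshold in limma. The Mmp10 probe was well above background on 0 arrays. Of 10 heat shock genes, 3 were lower and 1 higher at the unadjusted threshold, with a median of 0.04. Those lower were Hspa1b (-0.87, unadjusted p = 0.00743), Hspa1a (-1.49, unadjusted p = 0.0133) and Hspb1 (-1.70, unadjusted p = 0.0314), as fitted in limma. The populations overlapped for Hspb1. The gene that was higher, Hsph1, differed by 0.73 without overlap (unadjusted p = 0.0345 in limma).

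Between the populations, endothelial, mesenchymal and leukocyte markers that passed the test differed in the same direction as Jun and Jdp2. The summed linear intensity of the 12 endothelial markers ranged from 4740 to 6593 in Wnt4hi and from 41483 to 75306 in Wnt4low. That of the 11 mesenchymal and pericyte markers ranged from 36136 to 68713 and from 85557 to 113426, and that of the 12 leukocyte markers from 70225 to 79047 and from 80562 to 104821. The summed β-cell markers ran the other way, from 327925 to 336473 in Wnt4hi and from 190303 to 292784 in Wnt4low. None of these sums overlapped between the populations, but the largest term of the leukocyte sum was Itgam, whose own populations overlapped (-0.09, unadjusted p = 0.667 in limma). Within the populations the order of the arrays differed between the sums. Wnt4hi replicate 2, the lowest array for Jun, had the highest endothelial and mesenchymal sums of its population and the lowest leukocyte sum. Its leukocyte median, as a log2 difference from the mean of all arrays, was instead the highest of its population (-0.18). Wnt4hi replicates 3 and 4 were at -0.27 and -0.42. Wnt4low replicate 1, the lowest Wnt4low array for Jun, Fos, Fosb and Fosl2, had the highest endothelial sum of its population and the lowest mesenchymal, leukocyte and β-cell sums. By the median of the leukocyte markers it was instead the highest (0.50), with Wnt4low replicates 3 and 4 at 0.24 and 0.40. Itgam itself was the lowest of its population on Wnt4hi replicate 2 (15.67) and on Wnt4low replicate 1 (15.74). The order of the leukocyte sums therefore does not stand for the leukocyte markers as a list. Robo4 (-4.49), Kdr (-3.96) and Tek, for which Wnt4hi has only an upper limit, led the endothelial list, Cd74 (-1.73) the leukocyte list, Des (-1.98) the mesenchymal list and Pdx1 (1.84) the β-cell list by p. The part of other cell types in the values of Jun, Jdp2, Fosl2 and the immediate early genes was not tested.

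**Figure D4:**
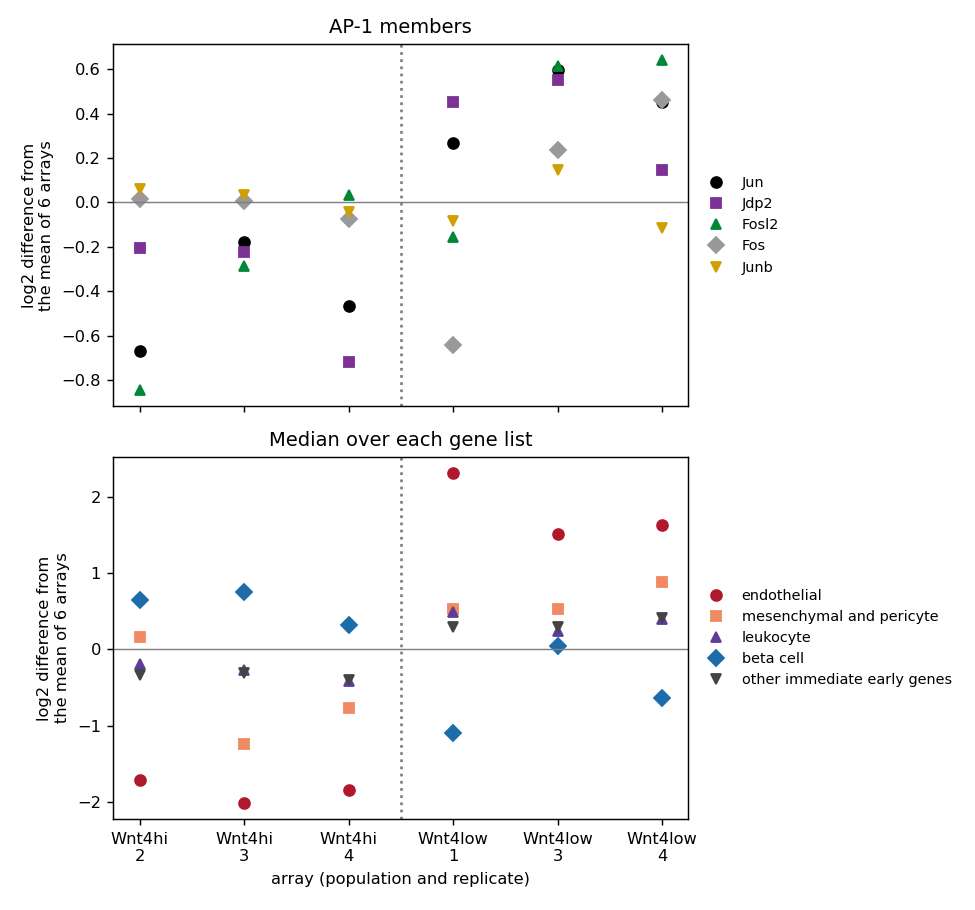
Log2 difference from the mean of the 6 arrays (vertical axes) on each array (horizontal axis) for 5 AP-1 members (top) and for the median of 5 gene lists (bottom). Jun and Jdp2 lie below 0 on all Wnt4hi arrays and above it on all Wnt4low arrays, as do the endothelial, leukocyte and other immediate early gene medians, with the endothelial median running from -2.01 to 2.31.

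Of the remaining marker lists, 3 of 7 genes of other endocrine cells were higher and 2 lower in Wnt4hi at the unadjusted threshold, led by the ghrelin gene Ghrl (2.10, adjusted p = 0.0491 in limma). One of 8 acinar, 0 of 6 ductal, 2 of 6 Schwann cell and 1 of 3 erythroid markers were lower, and 0 were higher.

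Under 19 other ways of processing or fitting the data at the unadjusted threshold, Jun passed in 19 with values from -1.003 to -0.69, and Jdp2 passed in 19 with values from -0.88 to -0.60. Their adjusted p-values ranged from 0.0868 to 0.378 for Jun and from 0.157 to 0.468 for Jdp2. Fosl2 was below 0 in all 19 (-0.99 to -0.49) and passed in 9 of them. Atf3 passed in 1 of 19, the fit that took replicate numbers as a fixed block (-1.07, unadjusted p = 0.0179 in limma), and Fosl1 in 1 of 18. Fos, Fosb, Junb, Jund and Batf passed in 0 and changed sign in at least 1 setting each.

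**Figure D5:**
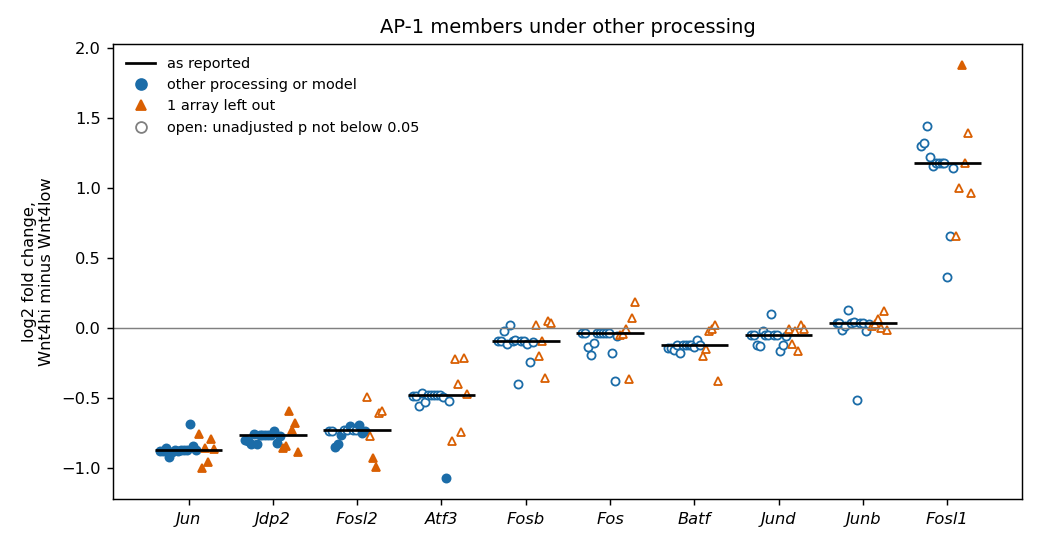
Log2 fold change, Wnt4hi minus Wnt4low (vertical axis), of each AP-1 member (horizontal axis) as reported (black line), under other processing or models (blue circles) and with 1 array left out (orange triangles), with open symbols where the unadjusted p is not below 0.05. All symbols of Jun and Jdp2 are filled and lie between -1.003 and -0.60, while those of Fos, Fosb, Batf, Jund and Junb are open and lie on both sides of 0.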

How the data were processed

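Amplified, Cy5-labelled cDNA of the sorted islet cells was measured on SurePrint G3 Mouse v2 arrays. Spot and local background intensity are as deposited by the scanner software, before normalization. The authors also deposited normalized log2 values, 1 column per array. The file headers name Feature Extraction 12.0.1.1, and the labels name version 9.1.

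After the study's methods, median intensities were background-corrected with normexp (offset 50), log2-transformed and quantile-normalized between arrays, leaving out control and outlier spots (50 to 141 per array), and compared with lmFit and eBayes (limma 3.58.1, R 4.3.3) without covariates. The threshold was an unadjusted p of 0.05, with Benjamini-Hochberg adjustment beside it. Spots of a probe were averaged, and a gene was represented by its brightest probe (mean of all 6 arrays). Of 27845 RefSeq-type names, 25126 matched RefSeq genes of GRCm38.p6. Probe positions are not given in the sources used here. The fit was tested on simulated data.

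The members and lists were chosen with earlier results of these data known. Named were all members and their probes, Wnt4, up to 3 genes of a list with the smallest p, with the range of a list that leads a passage, and the 3 genes most like Jun and Fos. Egr1, Itgam, Tie1, Mmp10 and Hsph1 were named outside this rule. Lists were described by counts and medians. Atf7 and Hbb-bs were not matched and were left out of the lists. The labels name pools of pups, and do not say whether pools of one number share pups. Precision is limited by the number of arrays. Alternatives concerned background correction, normalization, dim probes, outlier spots, choice of probe, variance model, test and values, the replicate number as a block, and each array left out in turn.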

Additional observations from a re-analysis of the deposited data

How the results depend on the processing

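With 3 arrays per population, 0 members passed the adjusted threshold in any setting. The number of members lower in Wnt4hi was 2 or 3 (the third being Fosl2) except with replicate numbers as a fixed block, where it was 4 (Fosl2 and Atf3 added), and stayed at 2 or 3 without any 1 array. The number higher was 0 to 1 without 1 array, the 1 being Fosl1 without Wnt4hi replicate 4. The number of single probes lower was 2 to 5, with 5 without that array and 2 without Wnt4hi replicate 2 or Wnt4low replicate 3. The median over the members was -0.44 with the mean of all probes, -0.28 over the 8 members left by the filter on dim probes, -0.31 with the fixed block and -0.36 to 0.0212 without 1 array, the ends being without Wnt4low replicate 1 and without Wnt4low replicate 3.

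Signs turned for members with differences near 0. Junb was -0.0155 with the processed signal, -0.51 with the mean of all probes and -0.0194 with the fixed block. Fosb was 0.0184 with cyclic loess, and Jund was 0.10 with the mean of all probes. Without 1 array, Fos ranged from -0.36 to 0.19, Fosb from -0.36 to 0.0474, Junb from -0.0140 to 0.12, Jund from -0.16 to 0.0238 and Batf from -0.38 to 0.0186. The arrays behind the changes were Wnt4low replicate 3 (Fos, Fosb, Jund, Batf), Wnt4low replicate 4 (Fos, Fosb, Junb) and Wnt4hi replicate 2 (Fosb). The cause was not tested.

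The populations share replicate numbers 3 and 4, and the residuals of same-numbered arrays had r = -0.03 and 0.16, so the block is an alternative. As a fixed block it takes every difference from replicates 3 and 4 alone, without Wnt4hi replicate 2 and Wnt4low replicate 1. With a random replicate block (consensus correlation 0.103) the number of members lower was 3, with Fosl2 at an unadjusted p of 0.0495 in limma. Over all features, adjusted calls were 201 as reported, 509 with the filter on dim probes, 0 with the fixed block, 0 with the methods' t-test and 0 to 9 without 1 array (9 without Wnt4low replicate 3). Where this number was 0, the adjusted calls given above for Elk3, Rhob, Ccn2, Ghrl and the endothelial markers were lost too. The other immediate early genes lower in Wnt4hi numbered 14 to 19.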
